A study of Mus musculus with 24 samples.

Results

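Pramel4, Pramel5, Pramel6 and Pramel7 are 4 mouse genes of the PRAME-like family, and their transcripts carried peaks of m6A, the most common internal methyl group of messenger RNA, in embryos from the 2-cell or 8-cell stage onward and in no oocyte or zygote library. They are 4 of 21883 distinct protein-coding genes in a RefSeq gene table of GRCm38.p6, the assembly behind the mm10 build of the peak lists. They were picked because earlier results of these data showed them among the genes with embryonic peaks, so the stages at which they have peaks are given as a description, without a test. A peak was counted for a gene when it covered at least 1 bp of the gene body, introns included, and such a gene is called marked.

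The study mapped m6A by antibody capture of methylated RNA, set against input RNA of the same pool, in C57BL/6N mice. It covered germinal vesicle (GV) oocytes of the surrounded-nucleolus type, ovulated metaphase II (MII) oocytes, zygotes and embryos of 2 cells, of 8 cells and at the blastocyst stage, each with 2 biological replicates per the series' design text. All donors were 8-week-old females injected with PMSG, those of MII oocytes and embryos also with hCG, and embryos came from matings with 8-week-old males. The labels name no mutation, and GV oocytes were kept in IBMX, a phosphodiesterase inhibitor that holds them in arrest. Pools held 49 GV oocytes, 100 or 110 MII oocytes, 100 zygotes, 100 2-cell embryos, 100 or 51 8-cell embryos and 100 blastocysts. The 2-cell, 8-cell and blastocyst libraries are called the embryonic phase here, and the GV, MII and zygote libraries, whose RNA is mostly made by the growing oocyte, the maternal phase. The 12 lists of the antibody libraries held 6914 to 11959 peaks, and read depth was unknown. The inputs were not analysed here, so absence of a peak cannot be told apart from low expression or low coverage, and fewer copies of a transcript per cell cannot be told apart from fewer cells that make it.

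PRAME-like proteins are built from leucine-rich repeats and are encoded by a family that has multiplied in the mouse genome, with members active in germ cells and early embryos. Pramel7 and Pramel6 are the best studied in this tissue: in mouse embryonic stem cells and the inner cell mass, PRAMEL7 hands UHRF1, the protein that guides maintenance DNA methylation, to a cullin 2 ubiquitin ligase, and both genes hold stem cells undifferentiated. m6A is laid down as RNA is made, is often found near the stop codon and in the last exon, and helps set how long a transcript lasts and how well it is translated.

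The labels of the stages were checked against marker genes. Of 5 oocyte markers, Gdf9, Bmp15 and Mos were marked in 2, 1 and 0 embryonic libraries and in all 6 maternal ones, while Zp2 and Zp3 had no peak. Of 5 markers of the 2-cell stage, 3 were marked in both 2-cell libraries, 2 or 3 in the 8-cell and 0 or 1 in the other libraries. Zscan4c and Zscan4f had no peak, and Zscan4d was marked in 4 embryonic and 3 maternal libraries, both GV ones among them. Between 4 and 6 of 8 blastocyst markers were marked in each 8-cell and blastocyst library, against 0 or 1 in every other. Krt8 and Krt18 had no peak. Sox2 was also marked in 4 maternal libraries, both GV ones among them. Gata4 was marked in both 2-cell libraries and in 1 8-cell and 1 blastocyst library. Of 9 cumulus and granulosa cell markers, 1 or 2 were marked in each GV and MII library and none in a zygote or embryonic library. Inhba was marked in both GV and both MII libraries, Cyp19a1 in both GV libraries and Has2 in 1 MII library. Fshr, Amh, Foxl2, Ptx3, Tnfaip6 and Lhcgr had no peak in any of the 12 libraries.

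Pramel7 and Pramel6 lie side by side on chromosome 2 and were marked in all 6 embryonic and no maternal library. So was Pramel5 on chromosome 4, while Pramel4, on the same chromosome, was marked in both 8-cell and both blastocyst libraries and in no other. Of all protein-coding genes, 45.2% were marked in at least 1 library. The share marked in all 6 embryonic and no maternal library was 1.12%, that marked in all 6 maternal and no embryonic library 1.25%, and that marked in the 8-cell and blastocyst libraries alone 1.01%. Both replicates marked 12.9% of all protein-coding genes in 2-cell embryos, 17.9% in 8-cell embryos and 16.9% in blastocysts. Since these stages were what the genes were chosen by, nothing is read from these shares.

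**Figure D1:**
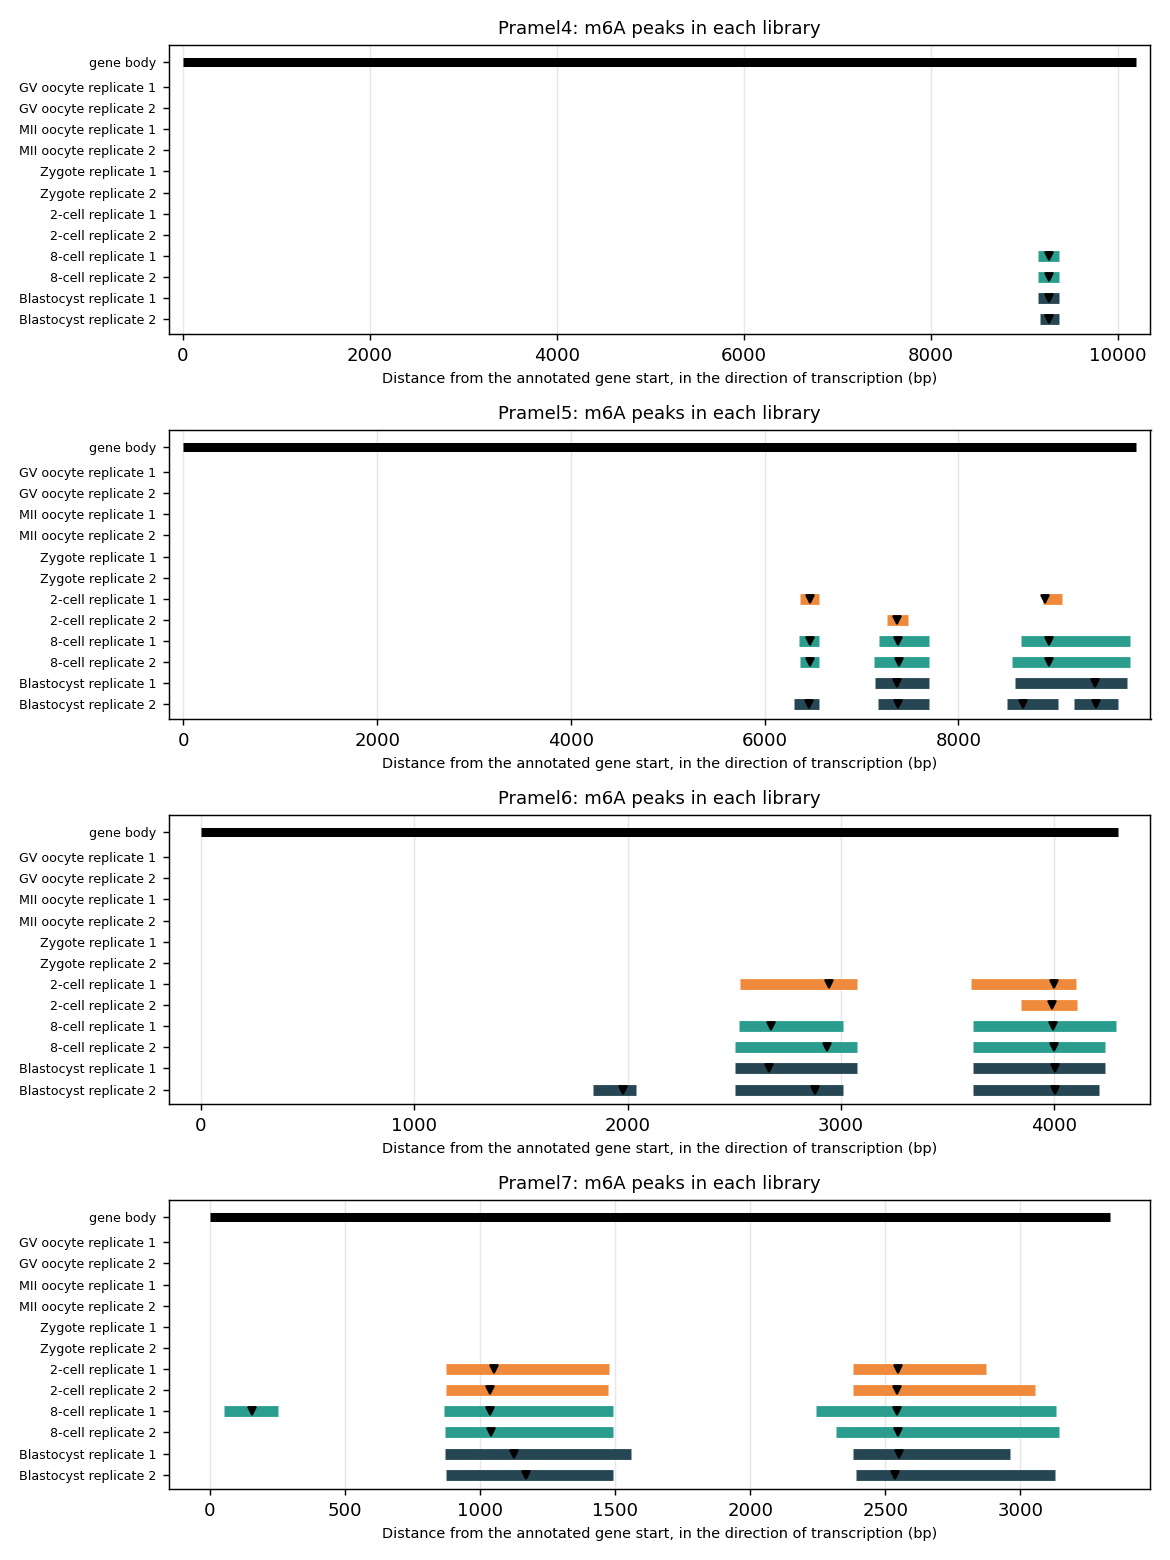
Peaks over Pramel4, Pramel5, Pramel6 and Pramel7 in each of the 12 libraries, drawn along the gene body from its annotated start (x axis, bp, in the direction of transcription); bars are peaks, coloured by stage, and black triangles their strongest summits. The 6 maternal libraries are empty in all 4 genes, and most bars of the embryonic libraries stack at recurring places. Pramel7 and Pramel6 each have 1 site called in 1 library alone. The short 2-cell peaks of Pramel5 fall at sites also called at later stages, but the 2 replicates share none of these sites.

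Pramel7 (chromosome 2, 87489088 to 87492418, minus strand, 3331 bp) carried 13 peaks in 6 libraries. Its strongest site covered 87489274 to 87490174 and was called in all 6 embryonic libraries, with summits 780 to 794 bp before the annotated 3′ end. Its fold enrichment of antibody over input RNA, as the authors' peak caller gave it, was 7.23 and 11.8 in 2-cell embryos, 10.4 and 7.11 in 8-cell embryos, and 9.25 and 10.6 in blastocysts. The stages overlap, and the 2-cell replicates span nearly the whole range. Ranked by q-value within its own list, this peak took rank 384 and 146 at the 2-cell stage, 41 and 63 at the 8-cell stage, and 90 and 113 in blastocysts. It was thus in the top 5% of peaks of every embryonic list, at percentiles 95.8 to 99.6. A weaker site, at 87490857 to 87491549, was also called in all 6 embryonic libraries, with 3.13 and 4.72-fold in 2-cell embryos, 4.78 and 3.91-fold in 8-cell embryos, and 6.80 and 7.49-fold in blastocysts. In each of the 6 libraries it was weaker than the site near the 3′ end, and both blastocyst values lie above the other 4. Here and below, how many marked genes have fold values that separate by stage was not counted. Single stages were not tested, so no stage difference is read from such orders. One more site, 157 bp after the gene start, was called in 8-cell replicate 1 alone, at 2.13-fold.

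Pramel6 (chromosome 2, 87506565 to 87510865, plus strand, 4301 bp), whose product like PRAMEL7 holds stem cells undifferentiated, carried 12 peaks. Its strongest site, 87510174 to 87510855, was called in all 6 embryonic libraries, with summits only 296 to 311 bp before the 3′ end. Fold enrichment there was 5.88 and 12.5 in 2-cell embryos, 14.0 and 11.2 in 8-cell embryos, and 9.17 and 8.68 in blastocysts. Both 8-cell values lie above both blastocyst values, while the 2-cell replicates lie apart, 1 below all the later values and the other between the 8-cell values. Its rank by q-value was 1654 and 761 in the 2-cell lists, 86 and 83 in the 8-cell lists, and 41 and 88 in the blastocyst lists. The 2-cell peaks thus ranked lowest, at percentiles 82.0 and 92.0, against 98.9 to 99.6 at the later stages. A further site at 87509067 to 87509640 was called in 5 libraries, all but 2-cell replicate 2, at 4.00 to 5.40-fold. At 87508402 to 87508602 there was 1 more peak, in blastocyst replicate 2 alone.

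Pramel5 (chromosome 4, 144270633 to 144280466, minus strand, 9834 bp) carried 15 peaks at 3 sites, all in the part of the gene nearest its 3′ end. The site whose summits lie 2443 to 2470 bp before the 3′ end was called in 5 libraries and had the best q-value of the gene in each of them. The best peak of the gene had a fold of 11.8 and 8.38 in 2-cell embryos, 6.48 and 5.99 in 8-cell embryos, and 5.81 and 7.03 in blastocysts. Both 2-cell values lie above all 4 later ones, yet by q-value the 2-cell peaks had the lowest ranks, 2810 and 4885, against 204 and 320 in 8-cell embryos and 728 and 1031 in blastocysts. The 2-cell peaks were also short, 201 to 216 bp, and the 2-cell replicates shared none: replicate 1 had its best peak 3366 bp and a weaker one 936 bp before the 3′ end, and replicate 2 its only peak 2470 bp before it. The site nearest the 3′ end was wide, up to 1221 bp, with up to 4 summits in 1 peak. Peaks covered Pramel5 over 402 and 216 bp in 2-cell, 1854 and 1991 bp in 8-cell, and 1709 and 1768 bp in blastocyst libraries.

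Pramel4 (chromosome 4, 144059125 to 144069327, plus strand, 10203 bp) differed from the other 3 in having a single, narrow and strong peak. It spanned 144068273 to 144068497, with widths of 202 to 225 bp, and its 4 summits fell within 6 bp of each other, 930 to 936 bp before the 3′ end. Fold enrichment was 20.4 and 16.7 in 8-cell embryos and 15.1 and 14.6 in blastocysts. Both 8-cell values lie above both blastocyst values, an order that was not tested. Its rank by q-value was 74 and 118 in the 8-cell lists and 552 and 893 in the blastocyst lists. No peak was called over Pramel4 in either 2-cell library, where the other 3 genes already had peaks.

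**Figure D2:**
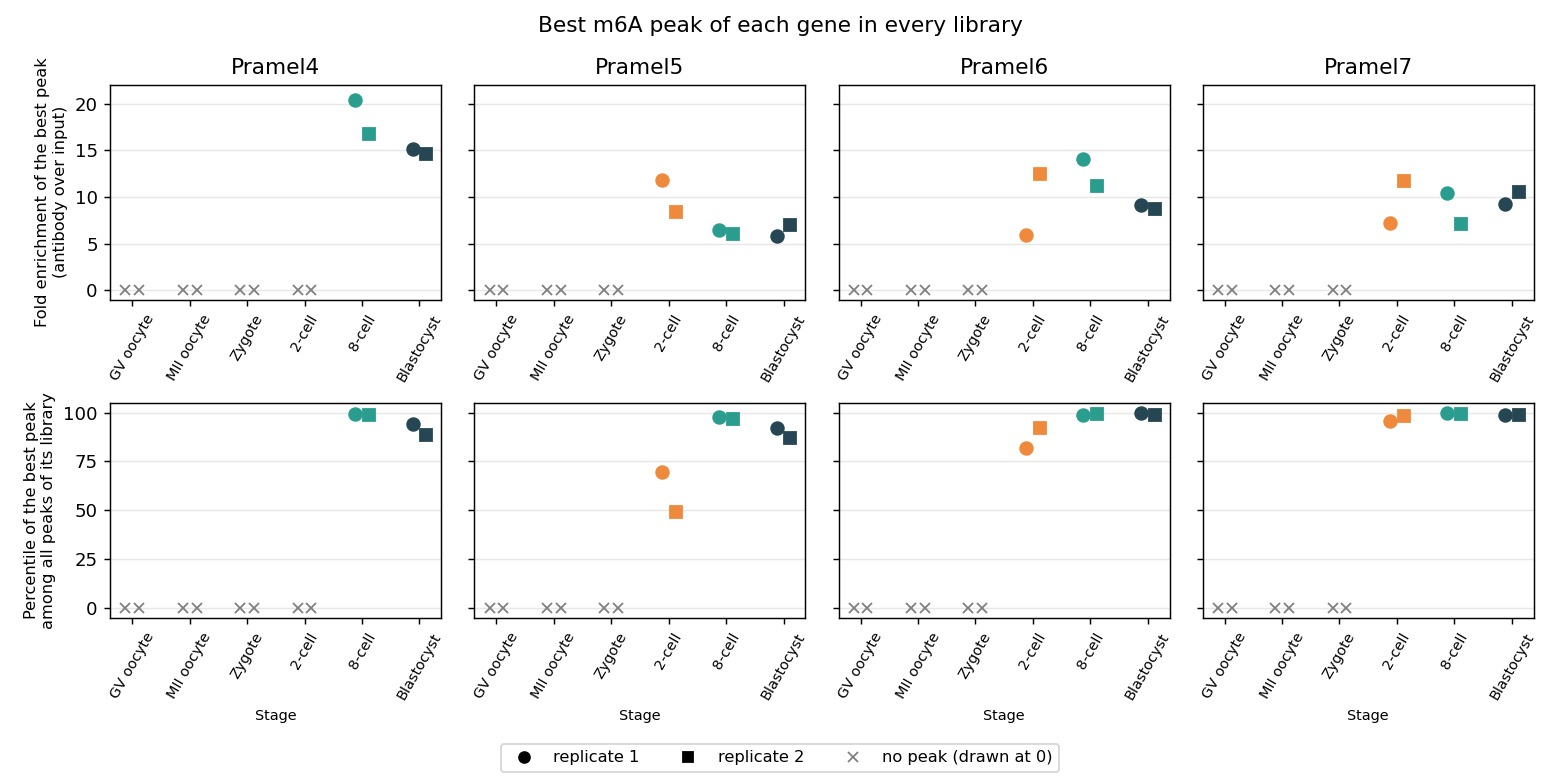
Fold enrichment of the best peak (upper row, antibody over input, authors' values) and its percentile by q-value among all peaks of its library (lower row), for each gene and library; circles are replicate 1, squares replicate 2 and crosses libraries without a peak, drawn at 0. Pramel4 shows 20.4 and 16.7-fold in 8-cell embryos and no 2-cell peak, and Pramel5 has its lowest percentiles, 69.3 and 48.9, at the 2-cell stage.

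Ordered by the median fold of the best peak, the peak of the gene with the best q-value in its library, over the libraries that have one, Pramel4 came first with 15.9 (lowest 14.6, highest 20.4, 4 libraries), then Pramel6 with 10.2 (5.88 to 14.0, 6 libraries), Pramel7 with 9.84 (7.11 to 11.8) and Pramel5 with 6.75 (5.81 to 11.8). The values of Pramel4 do not overlap those of Pramel6, and each of the other neighbours in this order overlaps the next. Median fold over all peaks of the embryonic lists was 5.68 to 6.79. By percentile of the q-value the order was Pramel6 (median 99.0), Pramel7 (98.8), Pramel4 (96.4) and Pramel5 (89.5). A q-value also moves with the number of reads at a site, and so with expression, whose part in these ranks was not tested.

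The best peak of Pramel4, Pramel6 and Pramel7 lay in the last 1000 bp of the gene in every library that had one, and that of Pramel5 in none. Among all marked protein-coding genes of at most 15000 bp, the best peak lay there for 39.3% and 43.3% in 2-cell embryos, 50.2% and 51.3% in 8-cell embryos, and 48.2% and 46.0% in blastocysts. Best summits of Pramel7 fell within 14 bp of each other over the 6 libraries, those of Pramel6 within 15 bp, and those of Pramel5 within 923 bp. For the 471 protein-coding genes of that length marked in all 6 embryonic libraries, the median spread was 256 bp, and 11.9% had a spread as small as that of Pramel7. More than 1 peak per library was found in Pramel7 in 6 of 6 libraries, in Pramel6 and Pramel5 in 5 of 6, and in Pramel4 in none. Of marked genes of that length, 23.1% to 28.9% had more than 1 peak per embryonic library.

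Close copies were looked for only in the promoter sequences of RefSeq (GRCm38.p6), which cover each annotated gene start and the bases just before it. Likeness of the transcripts, from which the reads under the peaks come, was not measured. A close promoter therefore does not show that the genes themselves are copies. The promoters of Pramel4 and Pramel5 were 83.4% identical in a global alignment (267 of 320 columns), and both were nearest to that of Gm13102, a protein-coding gene that starts 30553 bp beyond the end of Pramel4, with 89.1% for Pramel4 and 85.0% for Pramel5. A sample of 658 promoters gave a median identity of 49.6% with Pramel4 and a maximum of 56.8%. Pramel6 and Pramel7, although neighbours 14147 bp apart, were 48.2% identical, below the median of 48.7% that the sample gave with Pramel6. The promoters are shown to let them be compared by eye, with 3 short motifs in capitals, chosen after the sequences had been read.
Pramel4 (chr4:144058875-144059174, plus strand): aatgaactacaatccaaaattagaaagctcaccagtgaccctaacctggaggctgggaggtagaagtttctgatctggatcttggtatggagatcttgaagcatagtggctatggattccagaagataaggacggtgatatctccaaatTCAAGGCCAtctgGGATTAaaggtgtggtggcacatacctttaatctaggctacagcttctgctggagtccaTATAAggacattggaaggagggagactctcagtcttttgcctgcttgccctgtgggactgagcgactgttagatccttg
Pramel5 (chr4:144280417-144280716, minus strand): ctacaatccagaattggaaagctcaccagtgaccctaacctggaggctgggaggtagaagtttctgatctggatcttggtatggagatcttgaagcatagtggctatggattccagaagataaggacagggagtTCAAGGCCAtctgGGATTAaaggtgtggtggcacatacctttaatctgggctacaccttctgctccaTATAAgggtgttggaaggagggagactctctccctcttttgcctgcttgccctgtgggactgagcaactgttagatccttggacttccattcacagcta
Gm13102 (chr4:144099630-144099929, plus strand): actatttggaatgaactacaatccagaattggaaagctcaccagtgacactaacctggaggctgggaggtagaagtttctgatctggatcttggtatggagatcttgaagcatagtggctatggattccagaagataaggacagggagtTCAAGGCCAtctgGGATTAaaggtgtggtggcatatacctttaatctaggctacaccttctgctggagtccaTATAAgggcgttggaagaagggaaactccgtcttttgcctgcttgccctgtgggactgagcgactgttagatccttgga
Pramel6 (chr2:87506315-87506614, plus strand): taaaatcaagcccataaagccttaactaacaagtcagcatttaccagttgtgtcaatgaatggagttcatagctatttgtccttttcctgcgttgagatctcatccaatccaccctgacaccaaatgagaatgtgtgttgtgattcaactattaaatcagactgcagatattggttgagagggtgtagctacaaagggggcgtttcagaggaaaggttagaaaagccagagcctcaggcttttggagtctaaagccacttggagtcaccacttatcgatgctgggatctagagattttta
Pramel7 (chr2:87492369-87492668, minus strand): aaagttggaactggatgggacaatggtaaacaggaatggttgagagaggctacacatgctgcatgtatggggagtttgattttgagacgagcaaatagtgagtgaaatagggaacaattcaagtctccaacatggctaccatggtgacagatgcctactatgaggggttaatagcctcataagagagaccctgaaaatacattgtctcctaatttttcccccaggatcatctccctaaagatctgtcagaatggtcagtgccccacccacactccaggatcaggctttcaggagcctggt
The capitals mark TATAA, the core of the TATA box, TCAAGGNCA, the element read by the orphan receptors NR5A2 and ESRRB, and GGATTA, read by homeodomains of the OTX type, each searched on both strands. All 3 occurred once, in the same order and on the same strand, in Pramel4, Pramel5 and Gm13102, and none in Pramel6 or Pramel7. Those 3 promoters were 83.4% to 89.1% identical, so the motifs they share are not separate matches and add nothing to their likeness. Over all 32851 promoters, 24.9% held TATAA, 1.62% TCAAGGNCA and 7.06% GGATTA. Of the 39 other family genes with a promoter in the table, 25 held TATAA, 1 TCAAGGNCA and 4 GGATTA, so that TATAA is common in the family at large. TTCNNNGAA, the element of STAT factors, was in none of the 5, against 8.30% of all promoters. A match is a stretch of letters and was not shown to be bound.

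Gm13102 was marked in all 6 embryonic and no maternal library, like Pramel5. Its 14 peaks lay at 3 places, of which the 2 nearest the 3′ end are at distances close to those of the Pramel4 and Pramel5 sites. In 5 of the 6 libraries a summit fell 919 to 960 bp before the 3′ end, where Pramel4 has its peak at 930 to 936 bp and Pramel5 has summits at 894 to 936 bp in 3 libraries. All 6 libraries also had a summit 2608 to 2657 bp before the 3′ end, close to the 2443 to 2470 bp of Pramel5, while Pramel4 had none there. The fold of the best Gm13102 peak was 17.9 and 16.0 in 2-cell, 18.6 and 25.3 in 8-cell, and 15.4 and 78.0 in blastocyst libraries. How reads that fit several of these genes were placed is not given in the sources used here. Peaks can thus be shared or moved between Pramel4, Pramel5 and Gm13102, and this was not tested.

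Besides Gm13102, promoters of genes without a PRAME family name were as close to that of Pramel4 as the promoter of Pramel5, or followed it. They were those of Gm12789 (83.5% identical, marked in 3 embryonic and 0 maternal libraries), Sgk1 (a serum- and glucocorticoid-regulated kinase, 83.2%, 1 and 2) and Eif4a3l1 (77.6%, 4 and 0). Pemt (a phospholipid methyltransferase, 72.6%, 0 and 0) and Gpr161 (a G-protein-coupled receptor, 72.0%, 6 and 0) were also among them. So were 4 like-named genes on chromosome 10 at 73.1%, of which Gm4340 was marked in 3 and 0 and Gm21312, Gm21293 and Gm8764 in none. The promoters nearest to Pramel7 were those of Pramel14 (76.1%, 1 embryonic and 3 maternal libraries) and Pramel30 (74.8%, 5 and 0). Pramel6 had no promoter that close to its own, and the highest identity in its sample of promoters was 56.1%. The 11 nearest to it, at 55.7% to 60.6%, were Oog4, Pramel27, Pramel32, Pramel25, Pramel23, Oog2, Pramel26, Oog3, Oog1, Gm2042 and Pramel29, and each of these 11 genes was marked in at most 3 embryonic libraries and in all 6 maternal ones. Pramel6 itself was marked in 6 embryonic and 0 maternal libraries.

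The rest of the family was read from a test over all protein-coding genes: a two-sided Fisher's exact test of marked against unmarked libraries in the embryonic and maternal phases, with Benjamini-Hochberg adjustment over the 2308 genes marked in 5 to 7 libraries. The family was set by name alone, so Gm13102 is not counted in it. By name, the gene table holds 48 further protein-coding genes called Prame, Pramel or Oog (oogenesins, PRAME relatives first described in oocytes). Of these, 30 were marked in at least 1 library. Of the 17 that could be tested, 6 were called for the embryonic and 11 for the maternal phase. That is 35.3% and 64.7% of those tested, against 21.6% and 28.0% of all genes tested. The libraries of 1 stage are not separate draws from a phase, and near copies can share reads, so the p-values describe these libraries and the family's genes are not separate observations.

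The 6 family genes of the embryonic phase were Pramel33, Pramel35, Pramel38 and Pramel42 on chromosome 5, marked in 6 embryonic and 0 maternal libraries (each Fisher's exact, adjusted p = 0.00963), and Pramel1 and Pramel30 on chromosome 4, marked in 5 and 0 (each Fisher's exact, adjusted p = 0.0305). Oog2, Pramel15, Pramel27 and Pramel47 were marked in 0 embryonic and 6 maternal libraries (each Fisher's exact, adjusted p = 0.00963). Oog1, Oog4, Pramel23, Pramel25, Pramel26, Pramel32 and Pramel34 were marked in 1 and 6 (each Fisher's exact, adjusted p = 0.0305). For these 7 the embryonic library was 2-cell replicate 1. The genes on chromosome 4 were mixed along the cluster: Pramel5 lies 73699 bp from Oog2 and 49783 bp from Pramel30. The calls of Pramel30, Oog1 and Pramel23 were lost under each of 3 stricter peak sets: peaks of at least the median score, an equal number of peaks per list, and peaks of at least the median fold of their list. With the score cut, Pramel1, Pramel38 and Pramel15 were lost as well and Pramel13 and Pramel29 were added for the maternal phase, which left 3 embryonic calls. Pramel13 was also added with equal numbers of peaks. With the fold cut, Oog2, Oog4, Pramel15, Pramel25, Pramel26, Pramel27 and Pramel32 were lost as well and Pramel41 was added, which gave 5 embryonic and 3 maternal calls.

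The other marked family genes had totals outside the 5 to 7 libraries that were tested, some below and some above. Pramel17 was marked in both 2-cell and both 8-cell libraries and in no other, and Pramel18 in both 2-cell libraries alone. Oog3 was marked in 3 embryonic and 6 maternal libraries, Pramel29, Pramel41 and Pramel51 in 2 and 6, Pramel13 in 4 and 6, Pramel12 in 5 and 5, and Pramel48 in 6 and 5. Pramel14 was marked in 1 and 3, among them both GV libraries. By stage, the share of the 48 genes marked in both replicates was 39.6% for GV and 37.5% for MII oocytes, 33.3% for zygotes, 22.9% for 2-cell and for 8-cell embryos, and 14.6% for blastocysts. All protein-coding genes gave 20.8%, 16.2%, 12.7%, 12.9%, 17.9% and 16.9% at the same stages.

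**Figure D3:**
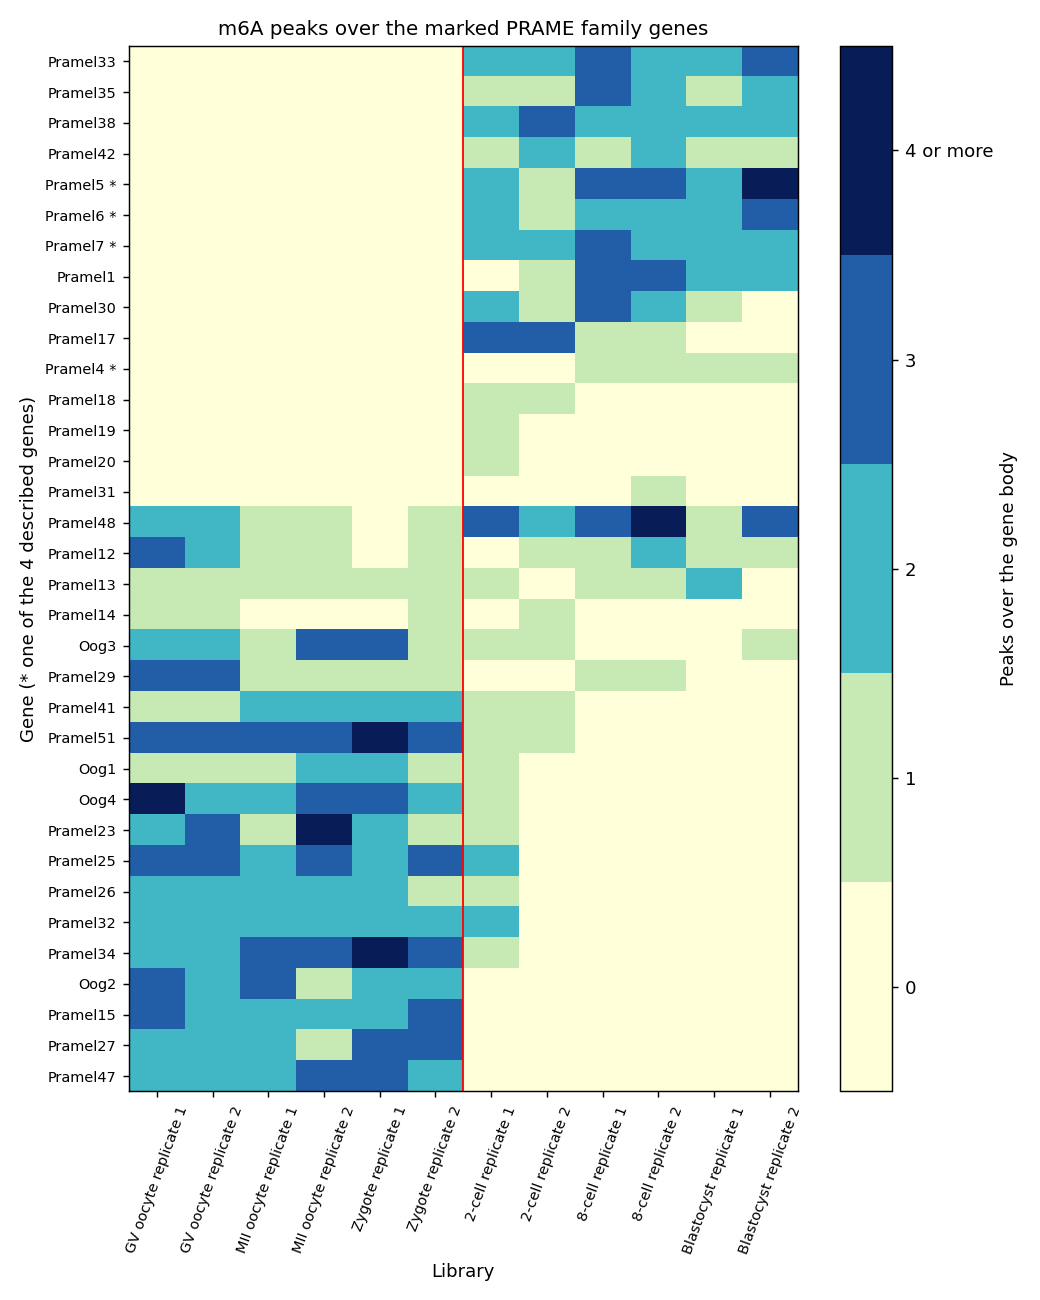
Number of peaks over each PRAME family gene that was marked in at least 1 of the 12 libraries (columns, in order of stage; the red line separates the maternal libraries on the left from the embryonic ones), ordered by embryonic minus maternal libraries. The starred rows, Pramel4 to Pramel7, are empty on the left, and 11 genes of the lower block were called for the maternal phase.

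The best peak lay at a median of 859 bp from the 3′ end over the 4 genes, 3 of which were within 1000 bp, against 1908 bp over the 23 other marked family genes with a known strand, 6 of which were. Among those 23, the genes called for the embryonic phase had a median of 1185 bp (5 genes, 2 within 1000 bp) and those called for the maternal phase 2078 bp (9 genes, 2 within 1000 bp). Over all marked genes of at most 15000 bp, the best peak lay in the last 1000 bp for 39.3% to 51.3% in embryonic libraries. In the maternal phase it lay there for 44.8% and 45.4% in GV libraries and for 26.7% to 28.9% in MII and zygote libraries. The part of stage or phase in the difference between the family's genes was not tested. No test was made of this difference.

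**Figure D4:**
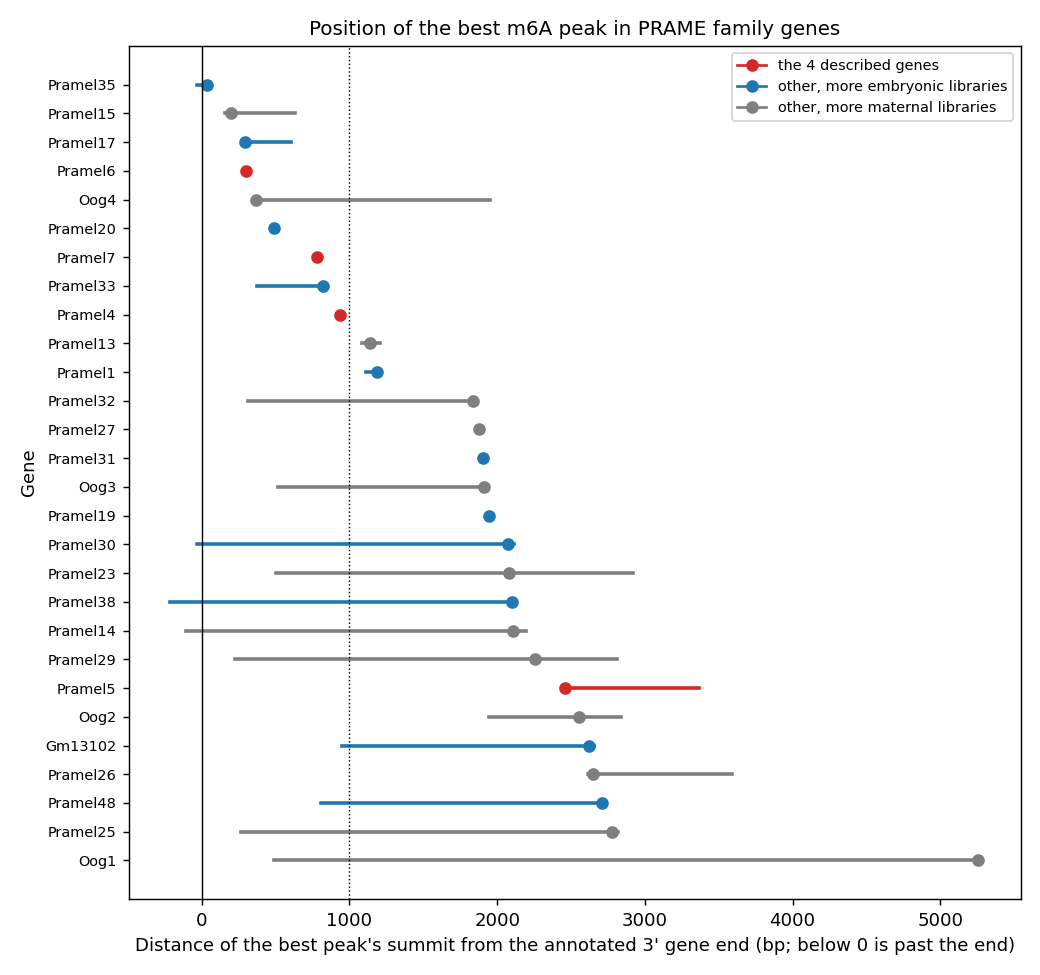
Distance of the best peak's summit from the annotated 3′ gene end (x axis, bp) in PRAME family genes and Gm13102; points are medians over the libraries with a peak, lines run from the lowest to the highest library, and the dotted line stands at 1000 bp. Pramel6, Pramel7 and Pramel4 lie below 1000 bp with almost no spread, and Pramel5 has its median at 2463 bp.

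The partners of PRAMEL7 and the LIF pathway, which acts upstream of Pramel7 in embryonic stem cells, were read from the same test. Of 12 genes listed, 10 were marked in at least 1 library and 2 could be tested. Neither passed. The others were marked in numbers of libraries at which no unadjusted p under 0.05 is possible, so nothing is read from their lack of a call. Usp7 (a deubiquitinase that protects UHRF1 and DNMT1) was marked in 1 embryonic and 5 maternal libraries (Fisher's exact, adjusted p = 0.143), and Il6st (the shared receptor subunit gp130) in 2 and 3 (adjusted p = 1.0 by the same test). Uhrf1 itself was marked in 0 embryonic libraries and 1 maternal one. Dnmt1, the maintenance DNA methyltransferase, was marked in 2 and 6, both embryonic ones being 2-cell. Cul2, the cullin scaffold, was marked in 3 and 0, and its adaptors Elob and Eloc in 1 and 0 and in 5 and 3. Rbx1, the RING subunit, and Stat3, the transcription factor of LIF signalling, had no peak in any library. Lif, the cytokine, was marked in 4 and 0, the same 4 libraries as Pramel4, its receptor Lifr in 0 and 3, and the feedback inhibitor Socs3 in 6 and 3. Leaving out 1 library changes which genes can be tested: without 2-cell replicate 1, Dnmt1 and Usp7 were called for the maternal and Lif for the embryonic phase (each Fisher's exact, adjusted p = 0.0305). Without 2-cell replicate 2, Dnmt1 and Lif were (each 0.0315, adjusted, by Fisher's exact test), and without GV oocyte replicate 2, Usp7 (0.0400). Socs3 was called for the embryonic phase when every list was cut to an equal number of peaks (Fisher's exact, adjusted p = 0.00834) and when only peaks of at least the median score were kept (0.0286).

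For each gene, the protein-coding genes most like it were those with the smallest mean difference, over the 12 libraries, in the percentile of the best peak, counting a library without a peak as 0. Nearest to Pramel7 were Elovl6 (a fatty acid elongase, mean difference 0.503 percentile points), Rpl10l (a germ cell copy of a ribosomal protein gene, 0.894), Spry2 (an inhibitor of receptor tyrosine kinase signalling, 1.16), Kbtbd2 (1.31) and Rbis (1.35). Nearest to Pramel6 were Calcoco2 (an autophagy receptor, 0.619), Klf5 (a Krüppel-like transcription factor, 0.939), Spry2 (1.09), Pabpc1 (the cytoplasmic poly(A)-binding protein, 1.15) and Rbis (1.33). Pramel7 and Pramel6 were 1.82 points apart, which put Pramel6 at place 11 for Pramel7. Nearest to Pramel4 were Gata6 (a transcription factor of primitive endoderm, 0.518), Zfp971 (0.971), Dnaja1 (a heat shock protein, 1.12), Bhmt (1.88) and Vnn1 (1.99), each marked in the same 4 libraries. Pramel5 had no neighbour that close: Toe1 (a deadenylase, 2.51), Trip13 (a checkpoint ATPase, 3.17), its relative Pramel35 (3.82), Yy1 (a zinc finger transcription factor, 4.00) and Acer2 (a ceramidase, 4.19) came first. Pramel4 and Pramel5, whose promoters are close, were 10.5 points apart. These distances describe 12 lists that share their stages and say nothing of shared control.

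No other gene of the table overlaps the 4 gene bodies. Apart from each other, the genes and pseudogenes within 100000 bp of Pramel6 and Pramel7, most of them olfactory receptors, had no peak in any library.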

How the data were processed

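Peaks of 12 m6A antibody libraries were used. Per the submitters' processing notes, the authors worked on mm10 with HISAT2 2.1.0 and MACS2 2.1.2 among other tools, with no settings stated in the labels. The peak names show 1 call per library against the input of its own stage and replicate. The deposited columns hold the authors' score, fold enrichment (a ratio), −log10 p-value, −log10 q-value and summit offset. No counts or depths are given. The 143579 summit lines were collapsed to 113764 peaks, 1 per interval, keeping the summit of best q-value.

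Gene bodies came from RefSeq, strand and promoter sequences from its GRCm38.p6 promoter table, with all 4 members and 43 of the 52 family genes matched there. No genome or protein sequence was used. Marks were tested with SciPy 1.17.1 (Fisher's exact test) and statsmodels 0.14.6 (adjustment at 0.05), on simulated marks first. Promoters were aligned with Biopython 1.88. Replicate numbers did not pair libraries: over 15 pairs of stages, replicate differences correlated by -0.165 to 0.0258. 2 libraries against 2 cannot give an exact p under 0.333, so single stages were not tested. The members, the lists and the tests were chosen with earlier results of these data known. Genes named are the members, family genes called or marked in both replicates of a stage, the pathway list and the 5 nearest in pattern. Neighbours within 100000 bp and genes with close promoters are named too, the last chosen after the values were seen. Alternatives are in the closing section.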

Additional observations from a re-analysis of the deposited data

Results flagged for a closer look

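Of 16 sets of values per gene over its 4 or 6 embryonic libraries, 2 had a library far from the others. The length of Pramel6 under peaks was 261 bp in 2-cell replicate 2, where it had 1 peak, against 1046 to 1303 bp in the other 5 libraries. Pramel7 had 3 peaks in 8-cell replicate 1 and 2 in each of the other 5 embryonic libraries. The extra one was the 2.13-fold peak near the gene start. About 1 in 20 sets of measured values is expected to be picked out by chance. That rate does not hold for counts of peaks, such as those of Pramel7.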

How the results depend on the processing

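In the alternatives that changed the peaks or the gene window, Pramel7 kept all 6 embryonic libraries and Pramel4 its 4. Pramel6 had 5 once peaks under their list's median fold were dropped, and Pramel5 had 5 then and 5 once peaks under the median score were dropped. Of these alternatives only the gene body widened by 1000 bp could add a library, and none of the 4 genes gained a maternal one there. The others can only remove peaks, so they say nothing of a gain. Counted as summit lines, Pramel6 had 22 and Pramel5 25 in place of 12 and 15. With a cut at the median score, 190 protein-coding genes were called for the embryonic phase in place of 498, with 3 family genes and 1 pathway gene. With every list cut to an equal number of peaks, 1 pathway gene was called for the embryonic phase. With a cut at each list's median fold, 225 genes were called for the embryonic and 344 for the maternal phase, with 3 family genes for the maternal phase. Leaving out 1 library at a time, the embryonic calls ranged from 501 to 815 (815 without 2-cell replicate 1 and 769 without 2-cell replicate 2), the maternal calls from 675 to 909, and the pathway calls from 0 to 1 for the embryonic and 0 to 2 for the maternal phase, with more genes able to be tested than in the full set. The same runs called 6 to 7 embryonic and 11 to 13 maternal family genes. None of the 17 family calls was lost there, and Pramel41 and Pramel51 (without either 2-cell library), Pramel29 (without either 8-cell library) and Pramel17 (without either blastocyst library) were added. The replicate block, fitted as a stratified exact test although the numbers share only a label, left 498 embryonic and 647 maternal calls, and 6 and 11 family calls. Read depth is unknown, so weak sites cannot be told from absent ones.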

Other observations

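Peaks outside any annotated gene lay close to 3 of the 4 genes, and only in embryonic libraries. Between Pramel7 and Pramel6, a site at chromosome 2, 87496929 to 87497222 was called in 5 libraries, both 2-cell, 8-cell replicate 1 and both blastocyst ones, at 6.60 to 15.1-fold. It lies 4668 bp before the annotated start of Pramel7 and 9479 bp before that of Pramel6, which are transcribed away from each other. A nearer site, 87494764 to 87495005, was called in both 8-cell libraries alone, at 4.30 and 4.71-fold with summits 1 bp apart, and 2 more sites there were called in 1 library each, 2-cell replicate 1 and 8-cell replicate 1. Beyond the 3′ end of Pramel5, a site at chromosome 4, 144255102 to 144255367 was called in 4 embryonic libraries at 7.05 to 12.2-fold, another at 144258946 to 144259455 in both 8-cell libraries, and the pseudogene Gm21012 next to it was marked in 3 embryonic and 0 maternal libraries. No such peak lay within 20000 bp of Pramel4. These sites were found by looking around the 4 genes, and no test was made of them.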
